A study of Mus musculus with 16 samples.

Results

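The endothelial marker genes described here were 10 of the 46078 genes in the count table: Cdh5, Pecam1, Kdr, Flt1, Tek, Tie1, Eng, Emcn, Vwf and Egfl7. They were chosen by gene symbol, and each symbol matched 1 gene of the table. All 10 passed the filter on low counts, which kept 14897 genes for testing. The libraries are labelled as made from engineered mouse juxtaglomerular (JG) cells, the cell type that makes renin in the wall of the renal afferent arteriole. By the study's methods the line carried a yellow fluorescent reporter driven by the renin promoter. Cultures received either miR-106b or a control precursor of non-mammalian sequence and were collected 48 h later. In 1 set of cultures polyadenylated (polyA) RNA was sequenced, and in a parallel set the RNA bound to Argonaute 2 (Ago2), the protein that carries microRNAs to their targets, was recovered by immunoprecipitation (Ago2-IP). With 4 replicate cultures for each transfection and RNA kind there were 4 groups, named below by RNA kind and then by transfection. All 4 groups carry the same cell label and were transfected. The defining marker of that label was absent, since the renin gene Ren1 had 0 counts in all libraries, while 25 cardiac muscle genes summed to between 26700 and 127000 CPM (counts scaled to the same library total in every library). The list of 15 mural and juxtaglomerular genes, Ren1 included, summed to 3080 to 3380 CPM in polyA control. Its genes with most counts, Des, Acta2 and Tagln, had means of 1100, 757 and 498 CPM there. Akr1b7 of that list had 6 counts in all libraries. Among kidney epithelial genes, Cdh16 of the tubule had a mean of 165 CPM in polyA control, and Podxl and Lrp2 had 83.8 and 16.9 CPM. Others of that list were near 0, with 1, 4, 17, 16 and 19 counts in all libraries for Slc34a1, Umod, Slc12a1, Slc12a3 and Aqp2. Which cells the endothelial values below come from is therefore uncertain, and the groups are named as labelled.

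Endothelial cells line blood and lymph vessels and are recognised by proteins of their junctions, by receptors for vascular growth factors and by a few secreted products. Vascular endothelial growth factor (VEGF) acts through the tyrosine kinase receptor encoded by Kdr, while Flt1 encodes a receptor that binds the same ligand tightly, signals weakly and also has a secreted form. Angiopoietins act through the receptor encoded by Tek, with Tie1 as its partner. In the kidney these genes mark glomerular, arteriolar and peritubular vessels, and renin cells are mural cells that lie against that endothelium rather than part of it. In bulk RNA a smaller share of cells of a type and less RNA per cell cannot be told apart.

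Library totals ran from 2579086 to 9459585 counts, so 3 counts, taken as the detection floor of a library, corresponded to 0.317 to 1.16 CPM. Levels below are in this unit, depth limits how finely low genes are resolved, and the fold changes come from fits with trimmed mean of M values (TMM) scaling. The 0 counts of Ren1 were out of 70668386, which allows up to 0.0425 CPM. The polyA miR-106b libraries stood apart from the other groups by their spread. The coefficient of variation of the 10 endothelial genes had a median of 26.4% there, against 16.4% in polyA control and 4.25% and 5.44% in the Ago2-IP groups of control and miR-106b. The polyA miR-106b replicate 1 library held the lowest level of its group for all 10 genes, and results that rest on it are given without it below.

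The transfected microRNA is shown first, because each gene was searched for its seed match. The capitals mark the seed, bases 2 to 8 of the mature strand in the RefSeq table of build GRCm38.p6, whose locus is at chr5:138165787-138165807 on the minus strand.
mmu-miR-106b-5p: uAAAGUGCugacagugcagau
The longest annotated 3′ untranslated region (UTR) of each gene was searched for GCACTTT, the match to bases 2 to 8, and for CACTTTA, the match to bases 2 to 7 followed by A. Eng held 1 match and the other 9 genes held 0. A match of either form was present in 22.2% of the 13215 tested genes with a 3′UTR. The site in Eng lies in its terminal exon at chr2:32681743-32681749 on the plus strand (GRCm38), and the capitals mark the match within its flanks.
Eng 3′UTR site: tctcctcacccCACTTTAcagaactgccc
The match is a description of the letters, not a measured target site.

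Of the VEGF receptors, Kdr passed the test in polyA RNA and Flt1 did not, and the difference between them was tested only by the ratio given below, in a design too small to pass. Kdr, the main signalling receptor for VEGF, lies at chr5:75932827-75978458 on the minus strand. Its level was 59.0, 41.2, 51.7 and 68.2 CPM in the polyA control libraries and 79.3, 159, 118 and 158 CPM in the polyA miR-106b libraries. It was 220, 219, 232 and 240 CPM in the Ago2-IP control libraries and 207, 210, 231 and 226 CPM in the Ago2-IP miR-106b libraries. Every polyA miR-106b library was above every polyA control library, every Ago2-IP library was above both, and the Ago2-IP groups overlapped. In polyA RNA Kdr rose 2.38-fold with miR-106b (log2 fold change 1.25, SE 0.22, edgeR adjusted p = 0.00115). Here and below p-values are adjusted by the Benjamini-Hochberg method over all genes tested, and a gene was called at an adjusted p under 0.05.

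Flt1, the receptor that binds VEGF tightly but signals weakly, lies at chr5:147561604-147726011 on the minus strand and had levels in polyA RNA that overlapped. Its level was 133, 127, 118 and 131 CPM in polyA control, and 89.1, 176, 144 and 135 CPM in polyA miR-106b. The 4 control values fell inside the range of the 4 miR-106b values. Its log2 fold change was 0.12 (SE 0.165, 95% interval -0.23 to 0.48, edgeR adjusted p = 0.585), so no difference beyond the spread between replicates was detected. Without polyA miR-106b replicate 1 the log2 fold change was 0.36 and the edgeR adjusted p was 0.0193, and without replicate 2 of that group it was -0.03. The call on Flt1 therefore changes with 1 library, although its change stayed below that of Kdr, which was 1.51 without replicate 1. In the Ago2-IP libraries Flt1 was 182, 186, 186 and 176 CPM in control and 182, 164, 175 and 182 CPM in miR-106b. All Ago2-IP control libraries were above all polyA control libraries, while the miR-106b groups of both RNA kinds overlapped. The counts are per gene and do not separate the membrane form of Flt1 from the secreted one.

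Within a library the ratio of Flt1 counts to Kdr counts does not depend on scaling. It was 1.92 to 3.08 in polyA control, 0.858 to 1.23 in polyA miR-106b, 0.734 to 0.848 in Ago2-IP control and 0.755 to 0.877 in Ago2-IP miR-106b. The polyA control libraries thus held more Flt1 than Kdr counts in 4 of 4 cases, and the 8 Ago2-IP libraries held fewer in every case. Mean log2 ratios were 1.23 ± 0.286 (SD, n = 4) in polyA control and 0.10 ± 0.222 (SD, n = 4) in polyA miR-106b. The difference of -1.13 gave p = 0.0286 in an exact two-sided permutation test, the smallest p that 4 against 4 libraries allow. The Ago2-IP control mean of -0.32 ± 0.0908 (SD, n = 4) differed from polyA control by -1.55, with the same exact permutation p of 0.0286. Adjusted over the 8 ratio tests made, these p-values became 0.114. A pair of tests at the smallest possible p cannot pass this adjustment, so the non-pass was set by the design and not by the ratios, whose ranges did not overlap. With miR-106b the Ago2-IP against polyA difference of -0.41 had an adjusted p of 0.152 in the exact permutation test. Between the Ago2-IP groups the ratio differed by 0.00 on the log2 scale (adjusted p = 0.914, exact permutation test). This pair was set apart after its values were seen.

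**Figure D1:**
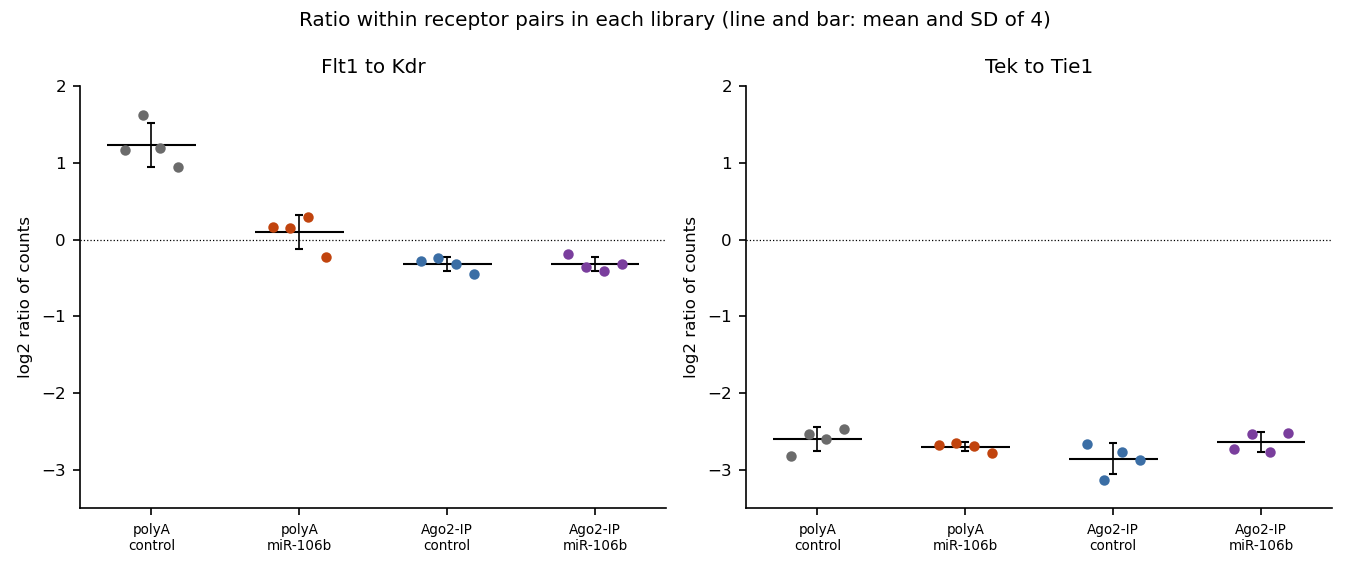
Log2 ratio of counts within each library (vertical axis) for Flt1 to Kdr on the left and Tek to Tie1 on the right, in the 4 groups of 4 libraries (points), with the mean (line) and SD (bar). The Flt1 to Kdr ratio is highest in the 4 polyA control libraries, with a mean of 1.23, and its means are lowest in the Ago2-IP groups, at -0.32, of which the miR-106b group overlaps polyA miR-106b, while Tek to Tie1 lies between -3.13 and -2.46 in all 16.

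The promoters of Kdr and Flt1 are shown because both receptors bind VEGF and, of this pair, only Kdr was called in polyA RNA. Entries from the RefSeq table (GRCm38.p6, 250 bases before to 50 after a start) were found for 7 of the 10 genes, as 9 promoters. The motifs searched on both strands were CCGGAA, a full core for ETS factors, AGGAAG, a second ETS form whose base before GGAA differs so that no GGAA counts for both, and AGATAA, bound by GATA factors. Capitals mark a match in the sequences, which run 5′ to 3′ on the strand of the gene.
Flt1 promoter, chr5:147725962-147726261, minus strand: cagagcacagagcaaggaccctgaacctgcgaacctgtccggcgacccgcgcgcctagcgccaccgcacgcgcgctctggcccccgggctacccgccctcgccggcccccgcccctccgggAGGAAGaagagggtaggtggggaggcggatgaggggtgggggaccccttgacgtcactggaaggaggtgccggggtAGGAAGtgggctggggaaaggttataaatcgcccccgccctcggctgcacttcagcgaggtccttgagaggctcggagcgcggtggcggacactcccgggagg
Kdr promoter, chr5:75978406-75978705, minus strand: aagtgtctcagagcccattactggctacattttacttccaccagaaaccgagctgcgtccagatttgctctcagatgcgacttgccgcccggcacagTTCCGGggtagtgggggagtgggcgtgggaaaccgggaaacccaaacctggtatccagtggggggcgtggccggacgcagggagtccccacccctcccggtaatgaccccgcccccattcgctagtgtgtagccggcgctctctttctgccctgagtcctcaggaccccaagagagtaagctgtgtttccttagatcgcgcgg
The Flt1 promoter had 70.7% G or C and 29 CpG dinucleotides, and the Kdr promoter 60.7% and 19, against medians of 52.7% and 7 over all 32851 promoters. Flt1 held 2 AGGAAG matches and Kdr 1 CCGGAA match. Of all promoters, 35.4% held AGGAAG, 14.9% CCGGAA and 11.2% AGATAA. Tie1, Eng and Emcn held 2 AGGAAG matches each, the 3 promoters of Egfl7 held 3, 2 and 0, and Tek held 1 AGATAA match. These matches are letters in the window and say nothing of binding.

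The angiopoietin receptor Tek (chr4:94739289-94874976, plus strand) and its partner Tie1 (chr4:118471191-118490061, minus strand) both rose with miR-106b in polyA RNA. Tek was 8.35 to 14.2 CPM in polyA control, 15.8 to 29.1 in polyA miR-106b, 31.8 to 39.4 in Ago2-IP control and 37.9 to 44.5 in Ago2-IP miR-106b. Tie1 was 48.2 to 78.3, 101 to 183, 239 to 279 and 220 to 257 CPM in the same order of groups. For both genes the polyA groups did not overlap, and the Ago2-IP libraries were above all polyA libraries. With miR-106b Tek rose 2.16-fold in polyA RNA (log2 fold change 1.11, SE 0.227, edgeR adjusted p = 0.00225) and Tie1 rose 2.32-fold (1.21, SE 0.2, adjusted p = 0.000785). The Tek to Tie1 ratio had adjusted p from 0.171 to 0.457 in its 4 exact permutation tests, which says nothing of a stable ratio at this number of libraries, and the largest log2 difference was -0.25, between Ago2-IP control and polyA control.

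Cdh5 encodes VE-cadherin, the adhesion protein of endothelial junctions, and lies at chr8:104101625-104144502 on the plus strand. It was 122, 96.6, 96.5 and 137 CPM in polyA control and 188, 332, 248 and 307 CPM in polyA miR-106b. It was 432, 460, 443 and 427 CPM in Ago2-IP control and 439, 409, 452 and 434 CPM in Ago2-IP miR-106b. The polyA groups did not overlap, both lay below every Ago2-IP library, and the Ago2-IP groups overlapped. Cdh5 rose 2.42-fold with miR-106b in polyA RNA (log2 fold change 1.28, SE 0.183, edgeR adjusted p = 0.000683), the largest change of the 10 genes in this fit.

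Pecam1 (chr11:106654217-106750628, minus strand) encodes an adhesion molecule of endothelium that platelets and leukocytes also carry. It ran from 39.7 to 55.7 CPM in polyA control, 63.4 to 129 in polyA miR-106b, 149 to 155 in Ago2-IP control and 144 to 165 in Ago2-IP miR-106b. It rose 2.14-fold in polyA RNA (log2 fold change 1.09, SE 0.204, edgeR adjusted p = 0.00136). Emcn encodes endomucin, a sialoglycoprotein of capillary and venous endothelium, lies at chr3:137341067-137432185 on the plus strand, and was the lowest of the 10 genes. Its counts were 16, 18, 17 and 15 in polyA control, equal to 2.54, 1.9, 2.58 and 2.63 CPM, and 13, 33, 12 and 17 in polyA miR-106b, equal to 2.85, 8.66, 3.45 and 6.04 CPM. All were above the floor of their library, and the groups did not overlap, though by a narrow margin. The Ago2-IP libraries held 5.71 to 12.3 CPM in control and 6.98 to 8.72 CPM in miR-106b, and those of miR-106b overlapped the polyA miR-106b libraries. Emcn rose 2.21-fold in polyA RNA (log2 fold change 1.14, SE 0.366, edgeR adjusted p = 0.0247). This call was lost without polyA control replicate 2 (1.02, edgeR adjusted p = 0.0779), without polyA miR-106b replicate 2 (0.76, adjusted p = 0.121) and without polyA miR-106b replicate 4 (1.06, adjusted p = 0.0645).

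Eng encodes endoglin, a co-receptor for ligands of the transforming growth factor family, and lies at chr2:32646595-32682669 on the plus strand. It was at 162, 125, 145 and 184 CPM in polyA control and 241, 436, 324 and 425 CPM in polyA miR-106b. It was 557 to 635 CPM in Ago2-IP control and 550 to 621 CPM in Ago2-IP miR-106b. The order of the groups was that of Cdh5, with polyA groups apart and Ago2-IP groups overlapping. Eng, the only one of the 10 with a seed match, rose 2.36-fold in polyA RNA (log2 fold change 1.24, SE 0.189, edgeR adjusted p = 0.000683), and in Ago2-IP RNA its log2 fold change with miR-106b was -0.05 (SE 0.0431, adjusted p = 0.937). Exons of Eng share 61 bases with those of Fpgs on the other strand, and since the libraries were not strand-specific, reads there cannot be assigned by strand.

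The secreted products were Vwf, the von Willebrand factor that tethers platelets, and Egfl7, a matrix-bound protein of growing vessels. Vwf (chr6:125546774-125686679, plus strand) was 37.6 to 50.2 CPM in polyA control, 65.2 to 110 in polyA miR-106b, 150 to 165 in Ago2-IP control and 150 to 164 in Ago2-IP miR-106b. Egfl7 (chr2:26580014-26593120, plus strand) was 32.7 to 45.8, 54.4 to 114, 144 to 149 and 130 to 144 CPM in the same order. Both rose in polyA RNA, Vwf 2.21-fold (log2 fold change 1.14, SE 0.168, edgeR adjusted p = 0.000683) and Egfl7 2.37-fold (1.25, SE 0.221, adjusted p = 0.00115). Egfl7 is the host gene of an endothelial microRNA, shown here because the gene is known for it, with its seed in capitals (RefSeq, GRCm38.p6, chr2:26591402-26591423, plus strand).
mmu-miR-126a-3p: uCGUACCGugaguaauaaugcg
The row of the precursor, Mir126a, held 0 counts in all libraries, and 73 of its bases are shared with annotated exons of Egfl7, so its level was not measured here. Egfl7 exons share 64 bases with Agpat2 on the other strand and 264 with Gm20532, which had 0 counts.

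**Figure D2:**
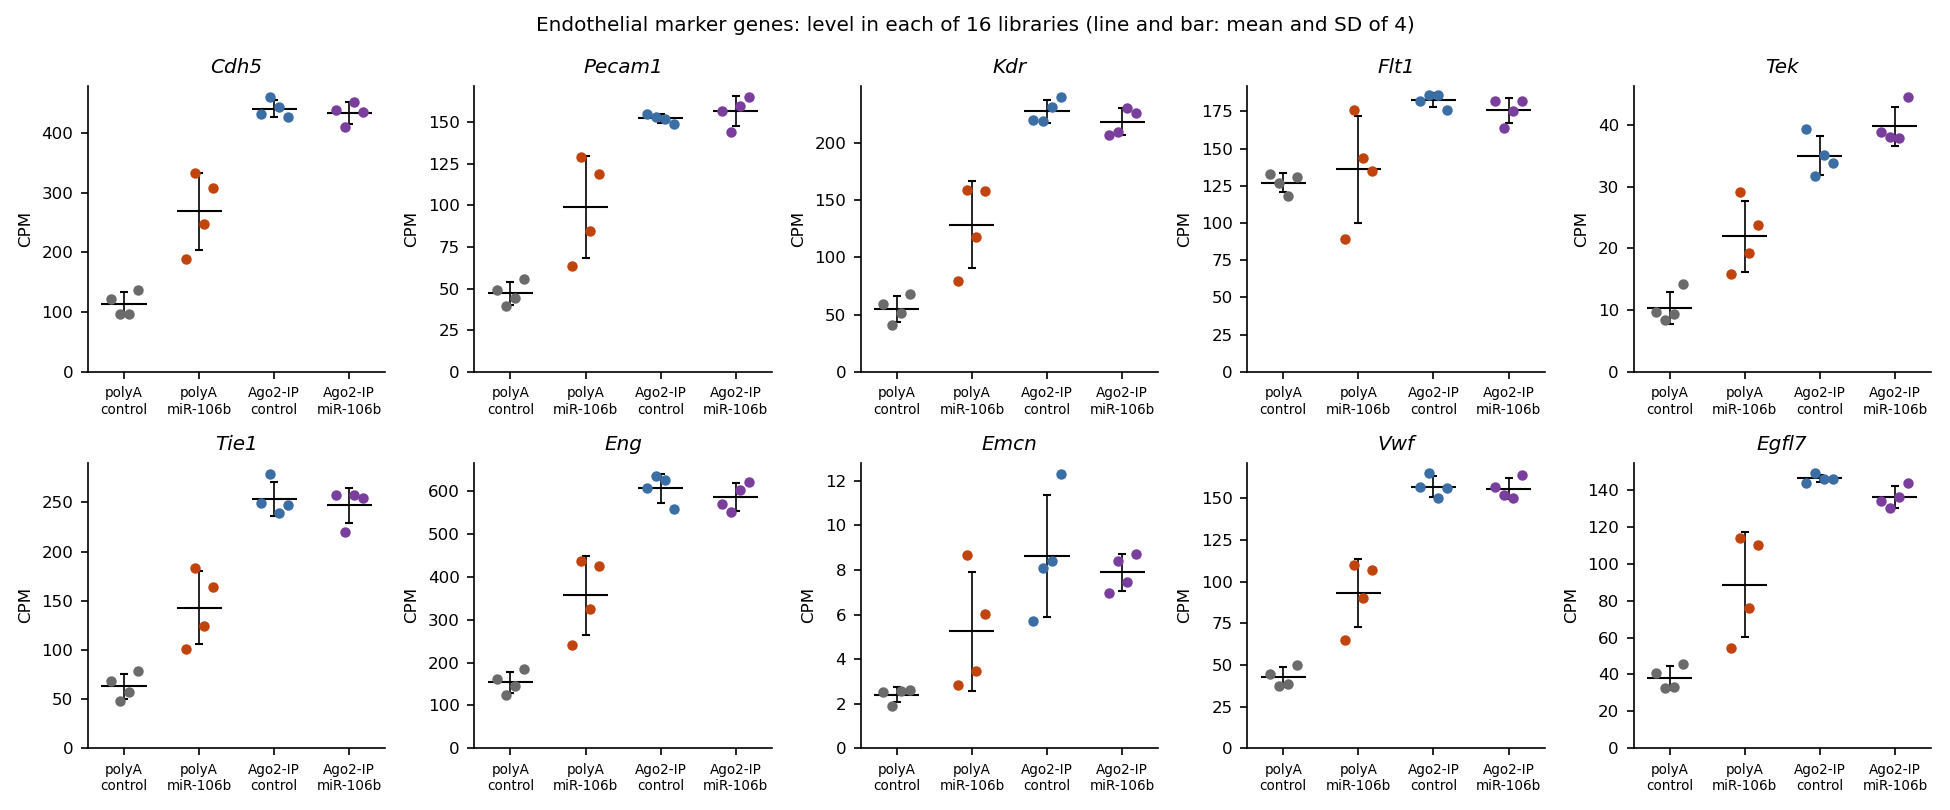
Level of each of the 10 genes in CPM (vertical axes, from 0) in the 16 libraries (points), by group, with the mean (line) and SD (bar) of 4. The polyA control mean is lowest and both Ago2-IP means are highest in all 10 panels, as for Cdh5 with means of 113, 269, 440 and 434 CPM, and for Flt1 the means of 127, 136, 183 and 176 CPM lie closer together.

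Per kilobase of exon, levels can be set side by side between genes. In polyA control Eng was highest at 38.1 ± 6.13 CPM per kb (SD, n = 4) and Cdh5 followed at 26.9 ± 4.78 CPM per kb (SD, n = 4), with overlapping libraries. Tie1 at 12.8, Egfl7 at 10.6, Flt1 at 9.42, Pecam1 at 7.58 and Kdr at 6.09 CPM per kb followed, each overlapping its neighbour, then Vwf at 2.67 and Tek at 2.21, and last Emcn at 0.446 CPM per kb. Flt1 and Kdr changed places. Flt1 stood above Pecam1 and Kdr in polyA control but below both in the other 3 groups, at 10.1 against 15.9 and 14.2 CPM per kb in polyA miR-106b and at 13.5 against 24.4 and 25.2 CPM per kb in Ago2-IP control. In polyA miR-106b the libraries of Flt1 and Kdr overlapped on this scale, and in Ago2-IP control those of Flt1 were below all of Pecam1. Eng and Cdh5 kept the first and second place in all 4 groups, at 150 ± 8.58 and 105 ± 3.49 CPM per kb (SD, n = 4) in Ago2-IP control, and Emcn the last.

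The first comparison asked how polyA RNA changed with miR-106b. Of the 10 genes, 9 rose and 0 fell, against 19.0% of all 14897 genes tested that rose and 21.5% that fell (edgeR quasi-likelihood F test, Benjamini-Hochberg adjusted p under 0.05). The 9 log2 fold changes lay between 1.09 and 1.28, the median of the 10 was 1.18 and that of all genes tested -0.05. The libraries of both transfections did not overlap for these 9 genes, all miR-106b values being higher, which held for 16.5% of all genes tested. Flt1 was the exception in both counts. The balance over all genes changed with single libraries: 47% of the genes called were higher, but 59.8% of 4583 without polyA control replicate 1 and 60.1% of 4292 without replicate 3.

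The same comparison in Ago2-IP RNA called 0 of the 10 genes and 0.0% of all genes tested (edgeR, adjusted p under 0.05). At an unadjusted p under 0.05 there were 826 genes and 0 of the 10, and DESeq2 called 2 genes. The log2 fold changes of the 10 genes lay between -0.14 for Emcn and 0.19 for Tek, with a median of -0.04. The 95% interval ran from -0.63 to 0.35 for Emcn and from -0.04 to 0.41 for Tek, and for Cdh5 from -0.11 to 0.07, so the depth and spread here bound a change of Cdh5 more closely than one of Emcn.

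Under control transfection all 10 genes were higher in Ago2-IP than in polyA RNA, against 35.1% of all genes tested that were higher (edgeR, adjusted p under 0.05). The 9 genes other than Flt1 had log2 fold changes from 2.01 for Pecam1 to 2.37 for Kdr, and Flt1 had 0.84 (SE 0.126, edgeR adjusted p = 2.56e-06). Every Ago2-IP library was above every polyA library for all 10, which held for 26.1% of all genes tested. With miR-106b 9 genes were higher in Ago2-IP RNA, against 21.9% of all genes tested. Their log2 fold changes ran from 0.52 for Flt1 to 1.01 for Tek, and Emcn at 0.75 did not pass (SE 0.313, edgeR adjusted p = 0.0518), although it passed at 1.15 without polyA miR-106b replicate 2 (edgeR adjusted p = 0.00505). The libraries were apart for 8 of the 10 genes, all but Flt1 and Emcn, and for 13.9% of all genes tested.

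The study set the Ago2:polyA ratio between transfections, and that ratio was tested as an interaction over all 16 libraries. It fell with miR-106b for 9 of the 10 genes and rose for 0, against 19.7% of all genes tested that fell and 7.61% that rose (edgeR, adjusted p under 0.05). The log2 changes ran from -1.07 for Tek to -1.49 for Egfl7 (SE 0.245, edgeR adjusted p = 0.000168). For Flt1 the change was -0.32 (SE 0.178, edgeR adjusted p = 0.19), and without polyA miR-106b replicate 1 it was -0.48 and passed (adjusted p = 0.00349). Without replicate 2 of that group the change of Flt1 was -0.07. For Emcn it was -1.42 (SE 0.44, edgeR adjusted p = 0.018) and did not pass without polyA miR-106b replicate 2 (-0.94, adjusted p = 0.111) or without Ago2-IP control replicate 4 (-1.19, adjusted p = 0.0528). The comparisons of polyA RNA, of the ratio and of the RNA kinds share polyA libraries, so they are not separate evidence. Scaling shifts every gene in the comparisons of RNA kinds: by library size alone the median of all genes was -0.35 in control and -0.19 with miR-106b, against -0.03 and -0.04 with TMM, and 0.10 against -0.07 for the ratio. Relative to that median the 9 genes were 2.04 to 2.41 higher in Ago2-IP RNA under control transfection with TMM and 2.04 to 2.41 higher by library size. A shift common to all genes cancels in this distance, so the match was set in advance and is no check of the scaling.

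**Figure D3:**
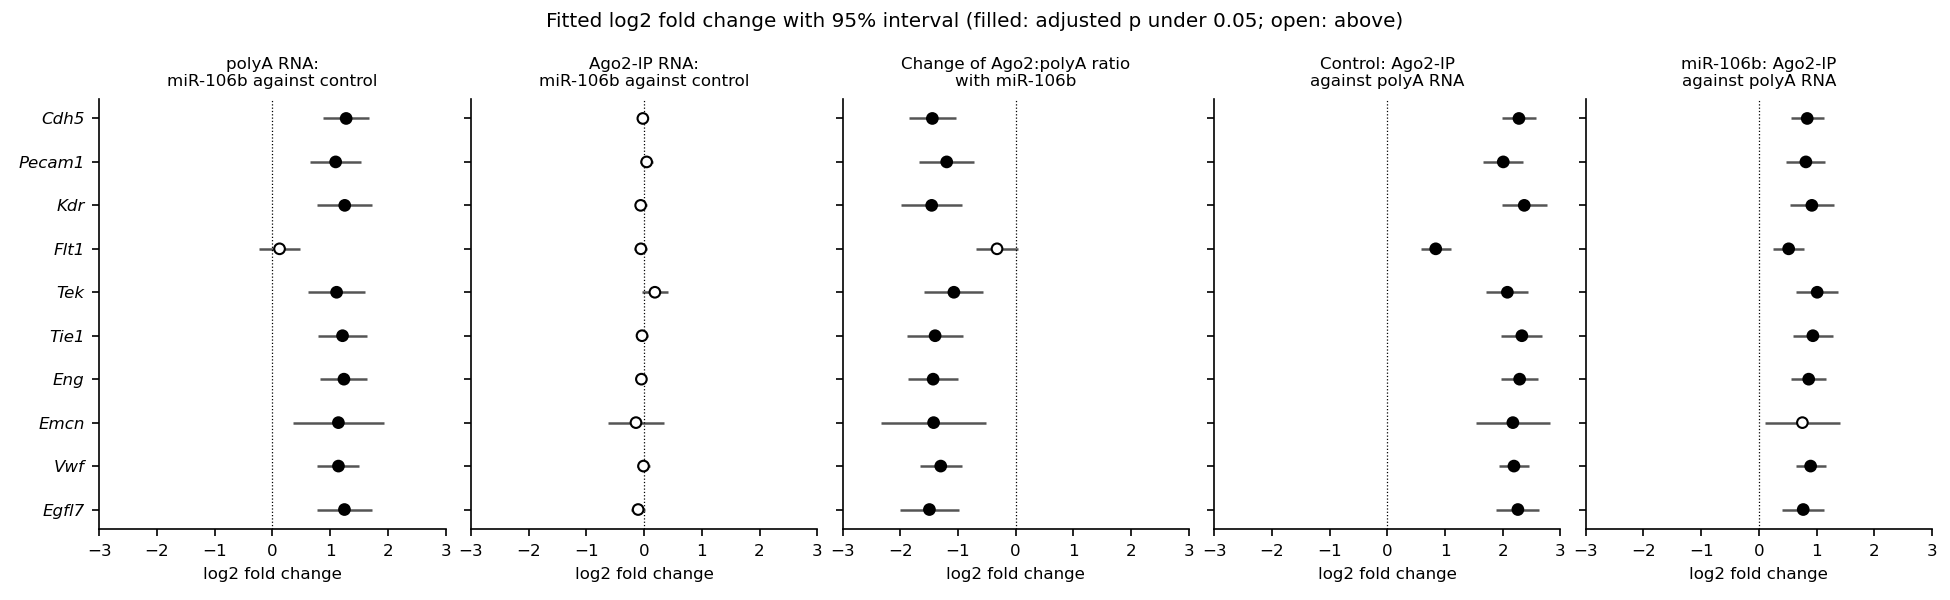
Fitted log2 fold change (horizontal axis) of each of the 10 genes with its 95% interval in 5 comparisons, filled where the adjusted p is under 0.05. In polyA RNA 9 genes lie between 1.09 and 1.28 and Flt1 at 0.12, in Ago2-IP RNA all lie between -0.14 and 0.19, and Flt1 is nearest to 0 in the other 3 panels.

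Markers of other cell types moved with these genes. The 25 genes of cardiac muscle, a tissue that the labels do not name, summed to 26700 to 37400 CPM in polyA control, 51400 to 88200 in polyA miR-106b, 119000 to 127000 in Ago2-IP control and 115000 to 126000 in Ago2-IP miR-106b. Of the 24 cardiac genes tested, 23 rose in polyA RNA with miR-106b, against 19.0% of all genes tested, with a median log2 fold change of 1.23. Of these 24, 23 were higher in Ago2-IP RNA under control transfection, against 35.1% of all genes tested, with a median of 2.29. The gene with most counts, Myh6, the myosin heavy chain of adult mouse heart, had means of 10000, 23200, 39500 and 38500 CPM in the order of groups used above, and the atrial light chain Myl7 had 36 counts in all libraries. Counts of the 9 endothelial genes other than Flt1, summed and expressed per 1000 cardiac counts of the same library, were 15.8 to 17.0 in all 16 libraries, a highest to lowest ratio of 1.08. For single genes the highest to lowest ratio on this scale ran from 1.08 for Eng to 2.3 for Emcn, against 4.16 for Pecam1 to 6.49 for Emcn in CPM over the same libraries. Flt1 was 3.49 to 4.76 per 1000 cardiac counts in polyA control, 1.57 to 2.26 in polyA miR-106b, 1.44 to 1.51 in Ago2-IP control and 1.42 to 1.52 in Ago2-IP miR-106b. The ranges of the sum overlapped in all 4 groups on this scale, and Flt1 was above its Ago2-IP level in all 8 polyA libraries. The sum leaves out Flt1, the gene that departed in these same libraries, so part of its steadiness was set by that choice. With Flt1 included, the sum of 10 was 20.2 to 20.9 in polyA control and at most 19.3 in the other groups. Its highest to lowest ratio was 1.21. Among other lists this ratio was 1.11 for leukocyte, 1.13 for other endothelial, 1.2 for lymphatic, 1.23 for red cell and 5.28 for fibroblast genes.

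**Figure D4:**
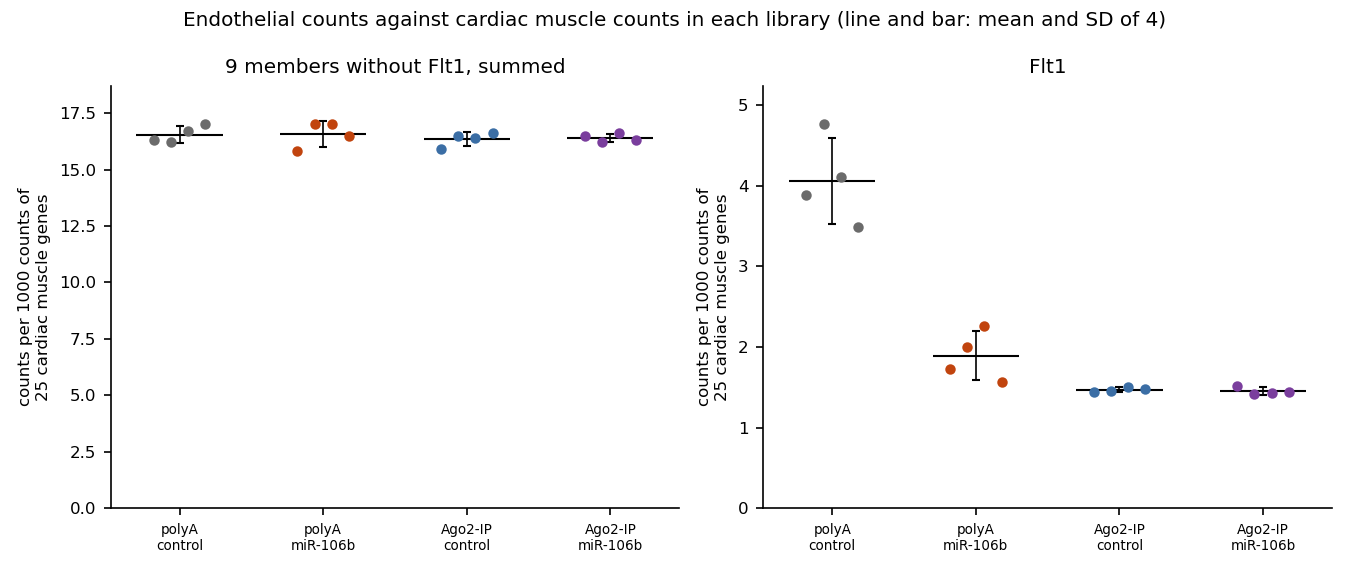
Counts per 1000 counts of 25 cardiac muscle genes in each library (vertical axes, from 0), for 9 endothelial genes summed (left) and for Flt1 (right), with the mean (line) and SD (bar) of 4. The sum of 9 stays between 15.8 and 17.0 in all 16 libraries, and Flt1 goes from 3.49 or more in polyA control to 1.52 or less in Ago2-IP.

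Within the 9, the level per 1000 cardiac counts was steadiest for Eng, at 4.69 to 5.07 over all 16 libraries, and for Cdh5, at 3.37 to 3.88. Pecam1 was 1.43 to 1.55 in polyA control and 1.2 to 1.25 in Ago2-IP control, ranges that do not overlap. Emcn, with the fewest counts, ran from 0.0452 to 0.104. The counts that follow stand beside the 19.0% of all genes tested that rose and 21.5% that fell in polyA RNA. Leukocyte genes followed the same order of groups, with 280 to 393 CPM summed in polyA control and 1200 to 1270 in Ago2-IP control, and 9 of 10 tested rose in polyA RNA with a median of 1.19, among them those with most counts, the complement genes C1qb and C1qa and the lysozyme gene Lyz2. The T cell marker Cd3e had 19 counts in all libraries. Red cell genes summed to 29.0 to 43.6 CPM in polyA control and 136 to 148 in Ago2-IP control, and 4 of 5 tested rose, while the red cell membrane gene Slc4a1 had 33 counts. Of the platelet list, which bears on Vwf and Pecam1, 1 of 5 tested rose, the chemokine gene Pf4 (log2 fold change 1.32, SE 0.265, edgeR adjusted p = 0.00202), and Gp6 had 0 counts. Fibroblast genes did not follow the order when summed, at 22200 to 23400 CPM in polyA control and 20300 to 20900 in Ago2-IP control, with 9 of 10 tested higher and 1, the fibronectin gene Fn1, lower in polyA RNA. Of 13 mural and juxtaglomerular genes tested, 9 rose, among them Des, and 2 fell, among them the smooth muscle gene Tagln. Of 10 kidney epithelial genes 3 passed the filter, and the podocyte gene Nphs1 had 8 counts. Of the 3, Podxl, which podocytes and endothelium share, rose in polyA RNA (log2 fold change 1.05, SE 0.173, edgeR adjusted p = 0.000794), and Lrp2, the endocytic receptor megalin of the proximal tubule, fell (log2 fold change -1.07, SE 0.387, adjusted p = 0.0445). Cdh16, the cadherin of kidney tubules, had means of 165 and 164 CPM in polyA control and polyA miR-106b, against 2.78 and 6.15 CPM in the Ago2-IP groups. The part of these cell types in the endothelial result was not tested beyond the ratios above.

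Of 13 other genes of the VEGF and angiopoietin pathway that were tested, 7 rose and 1 fell in polyA RNA, against 19.0% and 21.5% of all genes tested, with a median log2 fold change of 0.80. Under control transfection, Ago2-IP against polyA RNA, 8 were higher and 2 lower, against 35.1% and 34.6% of all genes tested. The ligand Vegfa rose by 0.80 (SE 0.142, edgeR adjusted p = 0.00109), Vegfb by 0.85 (SE 0.155, adjusted p = 0.00124) and the semaphorin receptor Plxnd1 by 0.75 (SE 0.148, adjusted p = 0.00183), all on the log2 scale. The 1 that fell was Sema3e, the ligand of Plxnd1, by 1.38 on the log2 scale (SE 0.198, edgeR adjusted p = 0.000683), named after its value was seen.

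The pathway around endoglin was described by its counts alone. Of 11 receptors, ligands and signal genes of bone morphogenetic protein and transforming growth factor signalling that were tested, 1 rose and 5 fell in polyA RNA, against 19.0% and 21.5% of all genes tested, with a median of -0.21. The 1 that rose was Acvrl1, the receptor that endoglin assists in endothelium (log2 fold change 1.31, SE 0.236, edgeR adjusted p = 0.0012), named after its value was seen. Tgfb1, with most counts of the list, fell by 0.32 (SE 0.0938, edgeR adjusted p = 0.0166) on the log2 scale, and Tgfbr2 and Id3 did not pass, at -0.16 and 0.03. The ligands Gdf2 and Bmp10 had 9 and 1 counts in all libraries.

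Of 14 transcription factors of endothelium tested, 8 rose and 1 fell in polyA RNA, and for this and the next lists the shares over all genes tested were again 19.0% and 21.5%. Among the 3 with most counts, Sox18 rose (log2 fold change 1.18, SE 0.177, edgeR adjusted p = 0.000683), the shear-responsive factor Klf4 fell by 0.76 (SE 0.131, adjusted p = 0.000988) on that scale, and Klf2 did not pass, at -0.20. Etv2, which starts endothelial fate in the embryo, had 0 counts. Of 22 other endothelial genes 18 rose and 0 fell, with a median of 1.15, and all 22 were higher in Ago2-IP than polyA RNA under control transfection, against 35.1% of all genes tested. The 3 with most counts were Cd93, Robo4 and Plvap, a receptor, a guidance receptor and a protein of fenestrae, at log2 fold changes of 1.02, 1.28 and 1.17. For Notch genes of vessels the count was 6 risen and 1 fallen of 11, with Notch4 and Jag2 risen by 1.19 and 1.24 and Notch1 at -0.12.

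Lists for kinds of endothelium were small, and their counts stand beside the 19.0% of all genes tested that rose and 21.5% that fell. In polyA RNA with miR-106b 7 of 10 capillary genes rose, with the fatty acid carrier gene Fabp4 at 1.25 and Cd36 at 1.23, as did 5 of 7 lymphatic genes, with the fate factor Prox1 at 1.26 and Lyve1 at 1.30. Of 8 arterial genes 3 rose, of 6 venous genes 2, and of 6 endocardial genes tested 2 rose and 1, Nfatc1, fell, with 0 lower in the arterial and venous lists. Aqp1, the capillary gene with most counts, did not pass, at -0.38. Fbln5, the arterial gene with most counts, did not pass either, at 0.38.

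Genes outside the 10 were ranked by likeness to the mean profile of the 10 over the 16 libraries. Over the 10945 candidates, members left out, whose mean level reached 5 CPM, the smallest root mean square difference of centred log2 levels was 0.0541 for Lgals3bp, a secreted glycoprotein. Crip2, a LIM domain protein, followed at 0.06, then Ogdh, an enzyme of the citric acid cycle, at 0.0612, Acsl1, which activates long-chain fatty acids, at 0.062, and Plekha6 at 0.0623. The same measure was 0.521 for Flt1, and 22.4% of those genes lay closer to the profile than Flt1 did. For Emcn, the next farthest of the 10, it was 0.243, and for Pecam1, the closest, 0.0452. This likeness is a description over 16 libraries that share their groups.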

How the data were processed

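The libraries were single-end and not strand-specific, and RNA from Ago2-IP was fragmented and prepared like polyA RNA. The deposited values were raw read counts per gene, which the authors made by alignment to GRCm38 and counting with HTSeq; the submitters' processing notes name TopHat2 2.0.10 and Bowtie2. Groups came from the sample labels, with 4 libraries each, and p-values measure the spread between these libraries. Genes with at least 1 CPM in at least 3 of the 4 libraries of any group were tested (14897 of 46078). The edgeR 4.0.16 quasi-likelihood F test with robust dispersion and TMM scaling was run in R 4.3.3 on the 8 polyA libraries, on the 8 Ago2-IP libraries, and on all 16 for the ratio and the contrasts of RNA kinds, with Benjamini-Hochberg adjustment and a threshold of 0.05. Methods were tested on simulated data with the same dispersion for every gene, which the real libraries need not have. Of 2-fold changes, 79.1% were recovered in polyA RNA, 82.1% in Ago2-IP RNA and 37.3% for the ratio. Of 1.5-fold changes, 16.4%, 17.9% and 4.48% were recovered in the same order, so small changes can be missed. Levels per kb used exon lengths of GENCODE annotation on GRCm38. Likeness used log2 CPM with a prior count of 2. Ratios of receptor counts were compared by exact two-sided permutation tests with scipy 1.17.1, chosen after seeing the data. Alternatives were other scaling and filters, DESeq2 1.42.0, a likelihood ratio test, a replicate block and leaving out each library. Text names the 10 genes, some of the 3 genes with the highest mean CPM in each other list, markers near 0 (some not reported here) and the 5 most like genes. The members and the 17 other lists were chosen with earlier results of these data known. Totals per library were 2579086 to 9459585 counts, and floors and limits cover counting error only.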

Additional observations from a re-analysis of the deposited data

Results flagged for a closer look

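Among 40 checks of a group of 4 libraries, 3 had a highest or lowest library whose gap to its nearest neighbour was too large a share of the range by Dixon's test, and chance gives this in about 1 of 20 groups. Tek in Ago2-IP miR-106b was 44.5 CPM in replicate 4, with the nearest library at 38.8. Tie1 in Ago2-IP miR-106b was 220 CPM in replicate 2, with the nearest at 254. Emcn in polyA control was 1.9 CPM in replicate 2, with the nearest at 2.54, from 18 counts.

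The change with miR-106b differed between Ago2-IP and polyA RNA for 9 genes by the interaction test of edgeR. All 9 were lower, against 19.7% of all genes tested that were lower in this test and 7.61% that were higher. The log2 difference, Ago2-IP minus polyA, was -1.44 for Cdh5, -1.19 for Pecam1, -1.46 for Kdr, -1.07 for Tek, -1.40 for Tie1, -1.43 for Eng, -1.42 for Emcn, -1.30 for Vwf and -1.49 for Egfl7. Cardiac muscle genes moved in the same libraries, as given above.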

How the results depend on the processing

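Of the single-gene values, 155 of 160 kept direction and call in polyA RNA, 151 of 160 in Ago2-IP RNA, 237 of 240 for the ratio, and 250 of 250 and 241 of 250 for Ago2-IP against polyA RNA under control and miR-106b. The 0 genes called in Ago2-IP RNA became 20 with no filter, 2 with at least 10 counts in every library, 2 with DESeq2, 18 with a likelihood ratio test, and 0 to 39 when a library was left out. Without 1 library, calls among the 10 genes ran from 8 to 10 in polyA RNA and for the ratio, while those over all genes ran from 4292 to 6702 and from 3352 to 4819.

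Log2 changes in Ago2-IP RNA that turned sign, none of them called, were Vwf at 0.0012 with at least 10 counts; Cdh5 at 0.001, Tie1 at 0.0133 and Vwf at 0.0154 without control replicate 2; Emcn at 0.1052 without control replicate 4; Cdh5 at 0.005, Tie1 at 0.0152 and Vwf at 0.001 without miR-106b replicate 2; and Vwf at 0.012 without miR-106b replicate 3. In polyA RNA Flt1 was -0.0344 without miR-106b replicate 2. The Flt1 to Kdr ratio between Ago2-IP groups became -0.0392 without control replicate 4 and -0.0387 without miR-106b replicate 1, settings added after seeing the data. Without each library in turn, in Ago2-IP RNA Cdh5 ran from -0.0378 to 0.005, Tie1 from -0.0622 to 0.0152, Emcn from -0.2916 to 0.1052 and Vwf from -0.0401 to 0.0154, the Flt1 to Kdr ratio from -0.0392 to 0.033, and Flt1 in polyA RNA from -0.0344 to 0.3648. The cause was not tested.

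Replicate numbers did not pair the samples (correlations of deviations from -0.421 to 0.261). With a replicate block, genes called were 5511 in polyA RNA, 1 in Ago2-IP RNA, 3896 for the ratio, and 10187 and 6638 for Ago2-IP against polyA RNA under control and miR-106b. The block changed 1 call of the 10 genes, Emcn under miR-106b (0.76, edgeR adjusted p = 0.0434). That value of Emcn was also called without polyA miR-106b replicate 4 (edgeR adjusted p = 0.0495), Ago2-IP control replicate 1 (0.0466) or replicate 4 (0.0461), with DESeq2 size factors (0.0404), with at least 10 counts (0.0362), with DESeq2 (0.0416) and with a likelihood ratio test (0.00601).

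Scaling moved the share of higher genes among those called. It was 47% in polyA RNA and 54.5% with DESeq2 size factors. With all 16 libraries in 1 fit, which changes the model as well as the scaling, it was 61.4%. By library size alone the share went from 27.9% to 46.5% for the ratio, and from 50.3% to 37.9% and from 47.3% to 34% for Ago2-IP against polyA RNA under control and miR-106b. Emcn had only 12 to 57 counts a library, and the part of counting error in its spread was not tested.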
